A study of Mus musculus with 8 samples.

Results

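The genes described here are 8 genes of horizontal cells, the inhibitory interneurons that sit under the photoreceptors of the retina. They were chosen by name: the transcription factor genes *Onecut1*, *Onecut2*, *Onecut3*, *Lhx1* and *Prox1*, the calcium-binding protein gene *Calb1*, and the cell-surface receptor genes *Megf10* and *Megf11*. All 8 were found among the 54532 genes of the count table, and all 8 were among the 17998 genes that passed the filter on low counts. Bulk RNA-seq compared 4 retinal samples of *Six3-Cre*+; *Mettl3* floxed/floxed pups (*Mettl3*-CKO) with 4 samples of littermate controls, whose genotype the labels give only as control. The *Mettl3*-CKO design deletes the gene of the core enzyme of the m6A RNA methylation complex in retinal progenitor cells. The labels give the age as postnatal day 7, and the methods place the collection a day earlier. *Six3-Cre* acts in retinal progenitor cells, from which horizontal cells arise, and the study describes efficient loss of the protein in the central retina. How far the protein was lost in each of these samples is not given. The labels do not say how many animals a sample holds, so the p-values measure the spread between these samples.

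Horizontal cells are born early, from progenitors in which *Foxn4* and *Ptf1a* direct the choice between horizontal and amacrine fate. *Onecut1* and *Onecut2* act downstream of these factors, *Prox1* promotes the fate, and *Lhx1* keeps the young cells in their proper layer. Mature horizontal cells are filled with calbindin, the product of *Calb1*, and space themselves evenly through the homotypic receptors MEGF10 and MEGF11. None of the 8 genes is restricted to horizontal cells. The Onecut genes are also used by retinal ganglion cells and by cone precursors, *Prox1* by AII amacrine cells, bipolar cells and the lens, *Calb1* by some amacrine and ganglion cells, and *Megf10* by starburst amacrine cells and glia. A count from whole retina therefore sums several cell types, and from it fewer cells of a type cannot be told apart from less RNA per cell. By staining at postnatal day 7, the study counted fewer calbindin-positive horizontal cells in *Mettl3*-CKO retinas. Its counts of calbindin-positive amacrine cells, ganglion cells and cones were comparable between the groups. Those are counts of stained cells, not of RNA.

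METTL3 methylates adenosines in a short sequence context whose commonest form is GGACU, written GGACT in DNA letters. Because these letters are the commonest context of the deleted enzyme, they were counted on the sense strand of the longest coding transcript of each gene (GENCODE vM21, GRCm38). A match is a description, not a methylated site. Of 14285 tested genes with a coding transcript, 92.9% held at least 1 GGACT, and the median density was 1.05 per kb. All 8 horizontal cell genes held the motif. The counts were 11 in *Onecut2*, *Megf10* and *Megf11*, 6 in *Onecut1* and *Prox1*, 4 in *Lhx1* and *Calb1*, and 3 in *Onecut3*. *Onecut2* has 9 of its 11 in a long 3′ UTR, and its density, 0.678 per kb, was above that of 26.6% of the tested genes. *Megf11* had the highest density of the 8, 1.65 per kb, above that of 79.6%. The motif nearest to the stop codon, among those whose 21-base window lies within a single exon, is printed here for 6 of the genes. It is not reported here for *Onecut2* and *Megf10*. The 6 sequences show where these letters lie in transcripts of the horizontal cell programme. Each is given 5′ to 3′ on the strand of the gene as 21 bases, with GGACT in capitals. It lies in the last exon in *Onecut1* (chr9:74889606-74889626, 3′ UTR, plus strand), *Onecut3* (chr10:80514259-80514279, 3′ UTR, plus strand), *Lhx1* (chr11:84519702-84519722, coding, minus strand) and *Calb1* (chr4:15905167-15905187, 3′ UTR, plus strand). It lies in exon 2 of 5 in *Prox1* (chr1:190160590-190160610, coding, minus strand) and in exon 23 of 25 in *Megf11* (chr9:64697845-64697865, coding, plus strand).
Onecut1: agaaccacGGACTagtacctc
Onecut3: tcaattttGGACTccaaaggg
Lhx1: cccccaggGGACTcgcctagt
Prox1: ccgcagaaGGACTctctttgt
Calb1: caaccataGGACTgtcaccca
Megf11: ccgcccgaGGACTtctacatt

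Total counts per sample ranged from 16227095 to 20281517, and 3 counts corresponded to between 0.148 and 0.185 CPM (counts scaled to a common library total). *Mettl3* itself differed by -0.38 on the log2 scale (SE 0.12, adjusted p = 0.0602, edgeR), with 24.1 ± 3.97 CPM in *Mettl3*-CKO samples and 31.2 ± 2.24 CPM in controls (SD, n = 4 each) and overlapping groups, on counts summed over the whole gene, which include exons outside a deleted segment. A pair of control samples stood apart. Control replicate 4 carried lens transcripts, with 17 lens genes summing to 5079 CPM against 7.13 to 95.1 CPM in the other 7 samples. Counts of control replicate 1 differed from those of the other controls by a chi-square of 23.6 to 41.2 per gene, against 5.01 to 14.7 among the others. It had the lowest summed cell cycle markers of the 8 samples, at 1454 CPM, with control replicate 4 next at 1566 CPM. Its sums of astrocyte, cone, bipolar, Müller glial and ganglion cell markers were the highest of the 8 samples.

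Levels of different genes were compared as FPKM (counts scaled by the deposited gene length and by the library total). In control retinas *Prox1* was highest, at 16.7 ± 3.28 FPKM (SD, n = 4), followed by *Megf10* at 10.1 ± 0.633 FPKM, *Onecut2* at 4.47 ± 1.26 FPKM and *Megf11* at 3.14 ± 0.23 FPKM. *Onecut1* was at 1.97 ± 0.412 FPKM, *Lhx1* at 1.43 ± 0.125 FPKM, *Calb1* at 1.37 ± 0.47 FPKM and *Onecut3* at 0.647 ± 0.104 FPKM. The ranges of the 4 control samples overlapped between *Onecut2* and *Megf11*, between *Onecut1* and *Lhx1*, and between *Lhx1* and *Calb1*, whereas the other neighbours in this order were separated in every control sample. The order of the means in *Mettl3*-CKO retinas was the same. *Onecut1* shares 52.8% of its exon bases with another gene on its strand, so its FPKM is uncertain.

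*Onecut2* was higher in *Mettl3*-CKO retinas, and it was the only one of the 8 genes that passed the test. The other 7 genes did not pass, with log2 fold changes from -0.55 for *Calb1* to 0.13 for *Onecut1*. By the quasi-likelihood test of edgeR, at a Benjamini-Hochberg adjusted p of 0.05 over all genes, 1 of 8 was called higher, where 6.49% of all genes tested were called higher. None of the 8 was called lower, where 4.05% of all genes were. DESeq2 also called 1 higher and 0 lower, where it called 8.38% of all genes higher and 5.79% lower. At an unadjusted p under 0.05 in edgeR the counts were 1 higher and 1 lower, the latter being *Calb1*, where 13.5% of all genes were higher and 11.1% lower. The median log2 fold change of the 8 was -0.11, against -0.01 over all genes tested. With 8 genes, these counts do not set the group apart from the rest of the transcriptome.

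**Figure D1:**
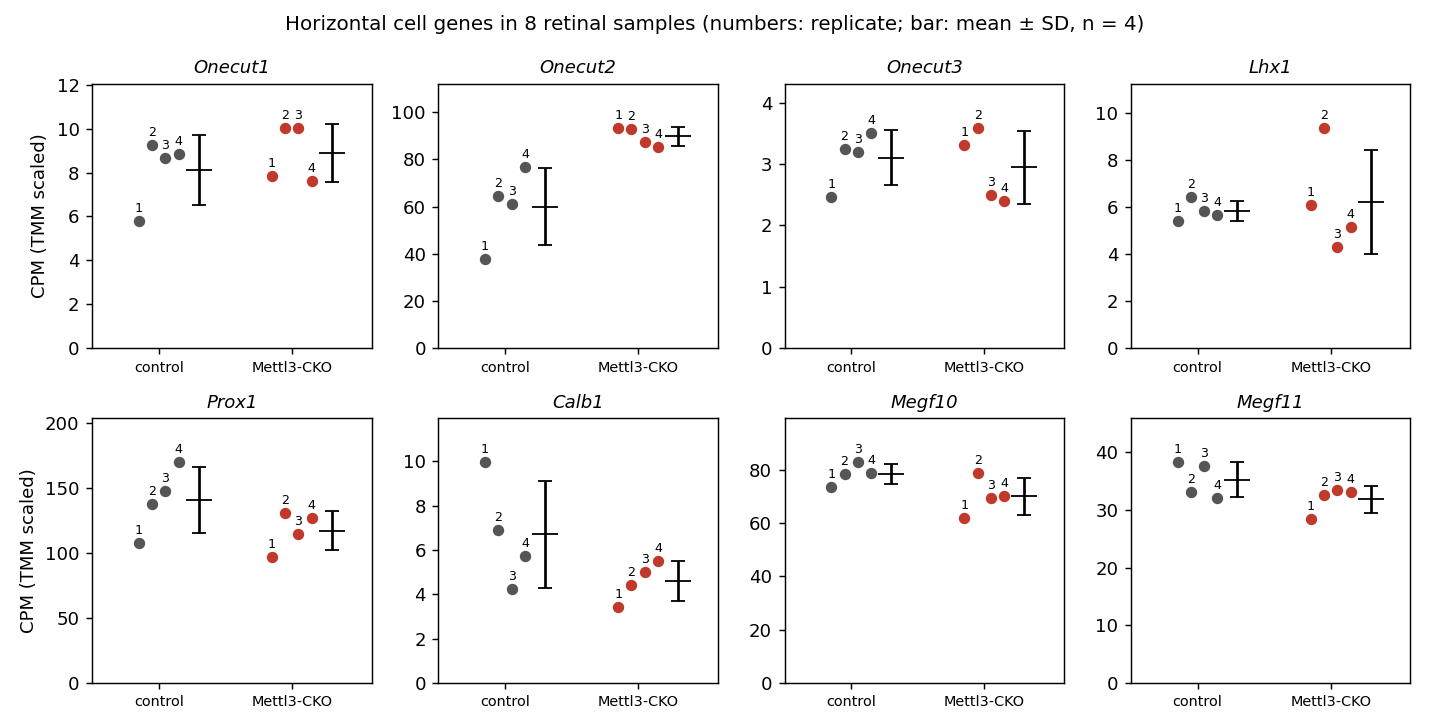
Level of each horizontal cell gene (y axis, TMM-scaled CPM, each panel from 0) in the 4 control and 4 *Mettl3*-CKO samples, with replicate numbers beside the points and the mean ± SD (n = 4) as a black bar. The groups separate for *Onecut2*, where *Mettl3*-CKO samples lie between 85.3 and 93.4 CPM and controls between 37.9 and 76.6 CPM, and overlap for the other 7 genes.

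*Onecut2*, a cut-homeodomain factor, is a plus-strand gene of chromosome 18 (GRCm38, 64340364 to 64398488). The 4 *Mettl3*-CKO samples read 93.4, 93.0, 87.2 and 85.3 CPM, in replicate order, and the 4 controls 37.9, 64.4, 60.9 and 76.6 CPM. Every *Mettl3*-CKO sample lay above every control, and control replicate 1 was the lowest. The means were 89.7 ± 4.08 CPM and 60.0 ± 16.2 CPM (SD, n = 4 each), a log2 fold change of 0.58, SE 0.16 (adjusted p = 0.0383, edgeR). Groups did not overlap in this direction for 9.77% of all genes tested. Without control replicate 1 the log2 fold change was 0.42 (adjusted p = 0.00669), without control replicate 4 it was 0.72 (adjusted p = 0.0189), and without both it was 0.52 (adjusted p = 0.00409). The call was lost without control replicate 2 or 3 or any one *Mettl3*-CKO sample, with adjusted p-values from 0.0668 to 0.134 and log2 fold changes from 0.56 to 0.62.

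The closest relatives of *Onecut2* did not pass the test. *Onecut1* was at 7.85, 10.03, 10.04 and 7.62 CPM in the 4 *Mettl3*-CKO samples, in replicate order, against 5.78, 9.25, 8.66 and 8.82 CPM in the 4 controls, so that the groups overlapped and control replicate 1 stood below the other 7 samples. Its log2 fold change was 0.13 (95% interval -0.24 to 0.50, adjusted p = 0.700, edgeR), and without control replicate 1 it was -0.0037. A lincRNA gene on the same strand, *Gm20649*, shares 52.8% of the exon bases of *Onecut1* and is listed at 0 counts in every sample, and how reads on shared bases were assigned is not given in the sources used here. *Onecut3*, with 46 to 62 counts per sample, was at 2.39 to 3.59 CPM in *Mettl3*-CKO samples and 2.46 to 3.50 CPM in controls (log2 fold change -0.07, 95% interval -0.53 to 0.38, adjusted p = 0.876, edgeR). Its groups covered almost the same range. The share of *Onecut2* in the summed FPKM of the Onecut genes was 68.5% to 73.0% in *Mettl3*-CKO samples and 59.6% to 66.5% in controls. That share comes from the same counts as the fold changes of these genes, so it is not a further result. Its level also rests on the uncertain *Onecut1* count.

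Some markers of dividing cells differed between the groups beside *Onecut2*. The 8 cell cycle markers summed to between 1892 and 2546 CPM in *Mettl3*-CKO samples and between 1454 and 1795 CPM in controls. Of the 8, 3 were called higher (*Mki67*, *Mcm2* and *Mcm5*), 5 were not called, and all 8 were detected. *Mki67* was the largest part of the sum, with means of 904.6 CPM in *Mettl3*-CKO samples and 458.9 CPM in controls. The log2 fold changes ran from 0.18 to 0.98, the highest being that of *Mki67*. By single-cell RNA-seq, the study reported *Ki67* higher and *Ccna2* lower in a mutant progenitor cluster than in the remaining progenitors. More dividing cells cannot be told apart here from more *Mki67* RNA per cell. Of 8 retinal ganglion cell markers, *Pou4f1* was called higher (log2 fold change 0.55, adjusted p = 0.0108, edgeR) and 7 were not called, and 7 of the 8 log2 fold changes were positive. Their sum was 400.5 to 446.1 CPM in *Mettl3*-CKO samples, 486.4 CPM in control replicate 1 and 316.8 to 354.5 CPM in the other 3 controls, so that every *Mettl3*-CKO sample lay above every control but that one. Without control replicate 1, *Slc17a6* was called higher as well. Of 9 cone markers, *Pde6h* and *Gnb3* were called lower and 6 of the 8 tested were not called. The 9 markers summed to 643.9 to 838.0 CPM in *Mettl3*-CKO samples and 800.8 to 1042 CPM in controls. The 1042 CPM was that of control replicate 1, and the other controls reached at most 873.5 CPM. *Gnb3* was the largest part of the sum, with means of 390.0 CPM in *Mettl3*-CKO samples and 518.7 CPM in controls. Without control replicate 4, or without *Mettl3*-CKO replicate 1 or 2, 0 cone markers were called. Fits that left out 1 sample called from 1 to 5 cell cycle markers higher, 2 of them without control replicate 4. Without both control replicates 1 and 4, 1 cell cycle marker was called higher. The part of these cells in the *Onecut2* difference was not tested.

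*Lhx1*, which marks horizontal cells from their migration onward, lies on chromosome 11 from 84518284 to 84525535 on the minus strand. It was at 6.08, 9.39, 4.30 and 5.18 CPM in the 4 *Mettl3*-CKO samples, in replicate order, against 5.40, 6.43, 5.82 and 5.68 CPM in the 4 controls. The *Mettl3*-CKO samples held both the highest and the lowest value, and the controls were close together. The log2 fold change was 0.09 (95% interval -0.37 to 0.56, adjusted p = 0.844, edgeR), and it was -0.17 without *Mettl3*-CKO replicate 2. It had 81 to 162 counts per sample.

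*Prox1*, which also marks AII amacrine and bipolar cells, lies on chromosome 1 from 190118035 to 190170714 on the minus strand. It was at 97.1, 130.3, 114.2 and 127.1 CPM in the 4 *Mettl3*-CKO samples, in replicate order, against 107.8, 137.8, 147.7 and 169.6 CPM in the 4 controls. Control replicate 1 overlapped the *Mettl3*-CKO samples and the highest value was that of control replicate 4, the library with lens transcripts. The log2 fold change was -0.26 (95% interval -0.55 to 0.02, adjusted p = 0.246, edgeR). Without control replicate 1 it was -0.37 and was called (adjusted p = 0.0209), without control replicate 4 it was -0.16 (adjusted p = 0.517), and without both it was -0.29 (adjusted p = 0.112). The part of lens tissue in the *Prox1* value of control replicate 4 was not tested. The antisense gene *Prox1os* covers 1.6% of the exon bases of *Prox1* and had 96 to 176 counts per sample.

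*Calb1*, whose protein is the usual stain for horizontal cells, lies on chromosome 4 from 15881264 to 15908064 on the plus strand. It was at 3.43, 4.41, 4.99 and 5.52 CPM in the 4 *Mettl3*-CKO samples, in replicate order, against 9.95, 6.92, 4.25 and 5.74 CPM in the 4 controls, from 62 to 186 counts. The highest 3 values were controls, but control replicate 3 lay below 3 of the 4 *Mettl3*-CKO samples. The means were 4.59 ± 0.897 CPM and 6.72 ± 2.42 CPM (SD, n = 4 each), a log2 fold change of -0.55, SE 0.24 (95% interval -1.08 to -0.02 before adjustment, adjusted p = 0.188, edgeR). Without control replicate 1 the log2 fold change was -0.29 (adjusted p = 0.36).

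The homotypic receptor genes were the most evenly measured of the 8. *Megf10* was at 61.9, 78.8, 69.3 and 70.3 CPM in the 4 *Mettl3*-CKO samples, in replicate order, against 73.5, 78.6, 82.8 and 78.9 CPM in the 4 controls, with 3 *Mettl3*-CKO samples below every control. Its log2 fold change was -0.16 (95% interval -0.36 to 0.04, adjusted p = 0.301, edgeR). *Megf11* was at 28.4, 32.6, 33.4 and 33.1 CPM against 38.3, 33.2, 37.6 and 32.1 CPM, with control replicates 2 and 4 among the *Mettl3*-CKO values. Its log2 fold change was -0.15 (95% interval -0.35 to 0.06, adjusted p = 0.377, edgeR). For this pair of receptors the intervals reach no lower than -0.36 on the log2 scale. The 5 markers of starburst amacrine cells, which also use *Megf10*, gave 0 calls, and they summed to between 103.4 and 163.9 CPM in *Mettl3*-CKO samples and between 83.5 and 107.7 CPM in controls. Most of that sum was *Sox2*, a gene also of progenitors and Müller glia, with means of 117.3 and 87.3 CPM, whereas *Chat*, which makes acetylcholine in starburst cells, averaged 5.23 and 5.18 CPM.

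**Figure D2:**
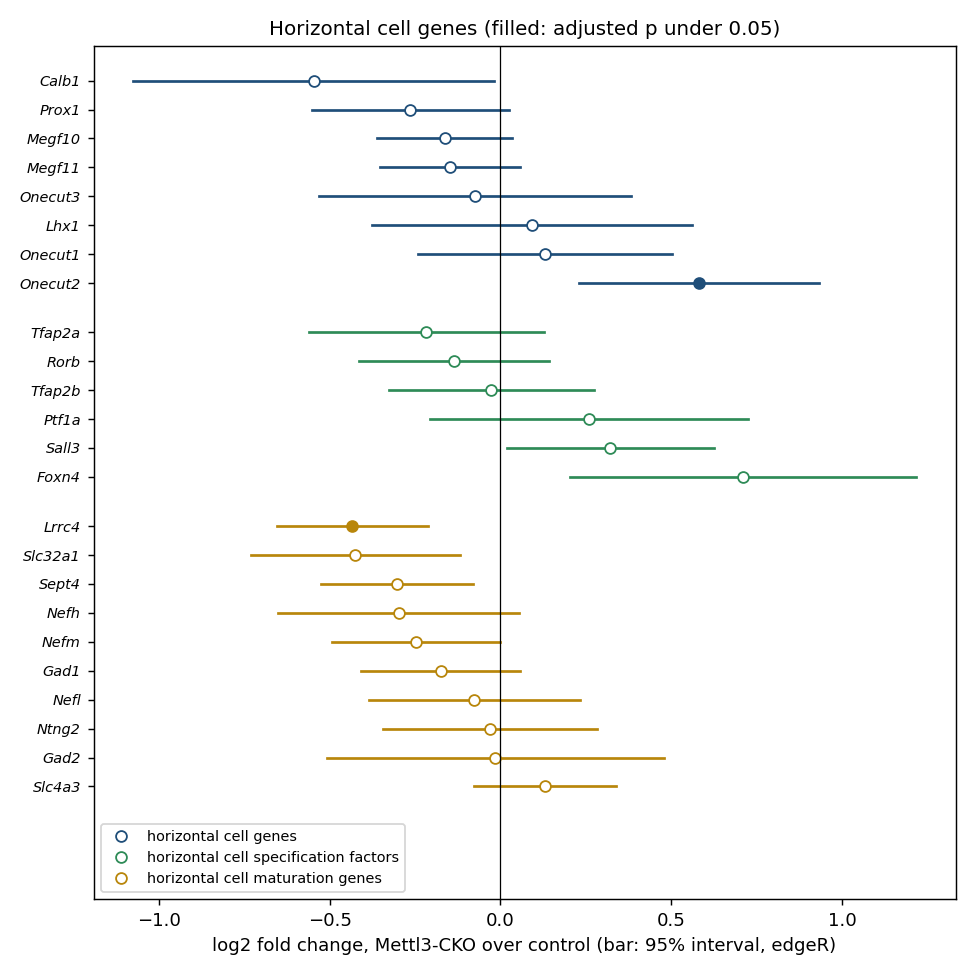
Log2 fold change of *Mettl3*-CKO over control (x axis) with its 95% interval for the 8 horizontal cell genes, the 6 specification factors and the 10 tested maturation genes. Filled points mark an adjusted p under 0.05, which *Onecut2* (0.58) and *Lrrc4* (-0.43) reached, while intervals of most other genes cross 0.

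Other genes of the horizontal cell programme were read from lists of 6 specification factors and 11 maturation genes. *Lrrc4*, which encodes the adhesion protein NGL-2 of horizontal cell axon tips, was lower in *Mettl3*-CKO retinas and was the only one of the 16 tested that passed. No gene was called higher. At an unadjusted p under 0.05 the counts were 4 lower and 2 higher, beside 11.1% and 13.5% of all genes, and DESeq2 called 2 lower and 0 higher, beside 5.79% and 8.38%. *Lrrc4* was at 31.2, 29.3, 35.2 and 39.9 CPM in the 4 *Mettl3*-CKO samples, in replicate order, against 44.5, 44.8, 48.2 and 45.9 CPM in the 4 controls, so that every *Mettl3*-CKO sample lay below every control. Its log2 fold change was -0.43, SE 0.10 (adjusted p = 0.019, edgeR), and the call was lost without *Mettl3*-CKO replicate 1 (-0.39, adjusted p = 0.0815) or control replicate 3 (-0.40, adjusted p = 0.0565). All genes called lower numbered 729 with all samples, 185 without *Mettl3*-CKO replicate 1 and 449 without control replicate 3. *Lrrc4* is also used outside horizontal cells. Of the 16, the groups did not overlap in 3, namely *Lrrc4* and *Sept4*, lower, and *Foxn4*, higher, where 7.58% of all genes tested were apart in the lower direction and 9.77% in the higher.

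Among the specification factors, values lay on both sides of 0, with a median log2 fold change of 0.12. *Foxn4*, which is expressed in progenitors, was at 53.8, 63.0, 41.8 and 39.8 CPM in the 4 *Mettl3*-CKO samples, in replicate order, against 15.03, 34.2, 35.8 and 36.2 CPM in the 4 controls. The groups did not overlap, and control replicate 1 lay far below the other controls. The log2 fold change was 0.71 (95% interval 0.20 to 1.22, adjusted p = 0.072, edgeR), and without control replicate 1 it was 0.49 and was called (adjusted p = 0.021). *Ptf1a* had a log2 fold change of 0.26 (adjusted p = 0.512, edgeR) and *Sall3*, a zinc finger gene needed for horizontal cell maturation, of 0.32 (adjusted p = 0.174, edgeR). *Tfap2a*, *Tfap2b* and *Rorb*, which act in horizontal and amacrine precursors, had log2 fold changes of -0.22, -0.03 and -0.13.

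The maturation genes had negative log2 fold changes in 9 of 10 tested, with a median of -0.21, against 51.8% of all genes tested. The 11 genes summed to 760.3 to 887.8 CPM in *Mettl3*-CKO samples and 887.8 to 930.1 CPM in controls, ranges that met at their ends. The largest parts of that sum were *Nefl* (means of 163.9 CPM in *Mettl3*-CKO samples and 172.8 CPM in controls) and *Ntng2* (158.5 and 161.8 CPM). Next were *Nefm* (133.8 and 158.8 CPM) and *Gad1* (103.6 and 116.9 CPM), whereas *Gja10* averaged 0.43 and 0.55 CPM. The negative log2 fold changes were largest in *Lrrc4* (-0.43) and *Slc32a1* (-0.42), and near 0 in *Gad2* (-0.02) and *Ntng2* (-0.03). With the replicate block, or without control replicate 3 or 4, 3 of the tested genes were positive, against 1 with all samples. *Slc32a1*, the vesicular transporter for GABA and glycine, was at 27.4, 32.1, 25.7 and 33.4 CPM in the 4 *Mettl3*-CKO samples, in replicate order, against 32.9, 50.3, 42.6 and 33.2 CPM in the 4 controls. Its groups overlapped (adjusted p = 0.0761, edgeR), and it was called without control replicate 1 (adjusted p = 0.0142) and in DESeq2 (adjusted p = 0.0395). *Sept4*, a septin gene, was at 47.8 to 60.9 CPM against 62.2 to 77.9 CPM, with groups apart and an adjusted p of 0.0816 (edgeR).

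The remaining maturation genes did not pass the test. *Gad1* and *Gad2*, which make GABA and serve amacrine cells as well, had log2 fold changes of -0.17 and -0.02. The neurofilament genes *Nefl*, *Nefm* and *Nefh*, shared with ganglion cells, had -0.08, -0.25 and -0.30. Of these, the 95% interval of *Nefm*, before adjustment, lay below 0. The netrin-G2 gene *Ntng2* and the anion exchanger gene *Slc4a3* had -0.03 and 0.13. *Ntng2* was far above *Calb1*, with means of 158.5 CPM in *Mettl3*-CKO samples and 161.8 CPM in controls. Whether its counts come from horizontal cells cannot be told from whole retina. *Gja10*, which encodes connexin 57 and is the gap junction gene closest to a horizontal cell marker, had 5 to 13 counts per sample and failed the filter.

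Of 7 family relatives of the 8 genes, 0 were called, with log2 fold changes from -0.71 to 0.10. The lowest was *Lhx5*, the closest relative of *Lhx1*, with 4 to 19 counts per sample. *Calb2*, which encodes calretinin of amacrine and ganglion cells, was at 176.9 CPM in control replicate 1 and at 93.3 to 106.4 CPM in the other 7 samples, and its log2 fold change of -0.24 became 0.02 without that library.

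The other marker lists give the setting of these values. Of 8 amacrine markers 1 was called lower (*Slc6a9*), with sums of 1731 to 2097 CPM in *Mettl3*-CKO samples and 1728 to 2041 CPM in controls. Of 5 bipolar markers tested, *Prkca* was called lower and 4 were not called, with sums of 1028 to 1095 CPM and 1069 to 1396 CPM, the highest being control replicate 1 and the other controls at most 1178 CPM. *Prkca* was not called without control replicate 3 or 4, or without *Mettl3*-CKO replicate 1, 2 or 3. Of 7 Müller glial markers tested, *Rlbp1* was called lower and *Glul* higher, with sums of 1938 to 2052 CPM and 1833 to 2232 CPM. Of 5 astrocyte markers 2 were called lower (*Gfap* and *Pdgfra*), with sums of 54.7 to 83.7 CPM and 95.1 to 214.9 CPM that did not overlap. Without control replicate 1 the controls reached 119.2 CPM and both calls were made again. Without any one *Mettl3*-CKO sample, 0 or 1 astrocyte marker was called lower. The 4 lymphatic markers, which would accompany *Prox1* of lymphatic vessels, summed to 54.7 to 65.9 CPM and 58.0 to 95.9 CPM. Most of that sum was *Pdpn*, with means of 56.8 CPM in *Mettl3*-CKO samples and 69.7 CPM in controls. *Flt4* averaged 1.67 and 1.83 CPM, and *Lyve1* and *Ccl21a* failed the filter. Of 17 lens markers 8 were tested and 5 called lower (*Cryaa*, *Cryba1*, *Crybb1*, *Crybb3* and *Crygd*), with groups that overlapped for every lens gene. Control replicate 4 held 5079 CPM of lens transcripts, the other controls 7.13 to 95.1 CPM and the *Mettl3*-CKO samples 7.77 to 27.0 CPM. Without control replicate 4, or without any one *Mettl3*-CKO sample, 0 lens genes were called. Without both control replicates 1 and 4, *Cryba4* was called higher. The marker *Foxe3* had 0 counts in every sample. The sums of the bipolar, amacrine and Müller lists overlapped between groups. Most of the bipolar sum was *Otx2*, with means of 945.8 CPM in *Mettl3*-CKO samples and 1075 CPM in controls. In the Müller sum *Dkk3* was highest, at 778.9 and 748.4 CPM, whereas *Glul* averaged 540.0 and 402.1 CPM and *Rlbp1* 94.7 and 229.5 CPM.

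Across the 8 samples the tested genes whose log2 CPM followed *Onecut1* most closely were *Apol8* (Pearson r = 0.956), *Mum1* (r = 0.953) and *Fam98b* (r = 0.953), given as a description over 8 points that share library scaling. None of the 3 was called, with log2 fold changes of 0.10, 0.08 and 0.06.

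**Figure D3:**
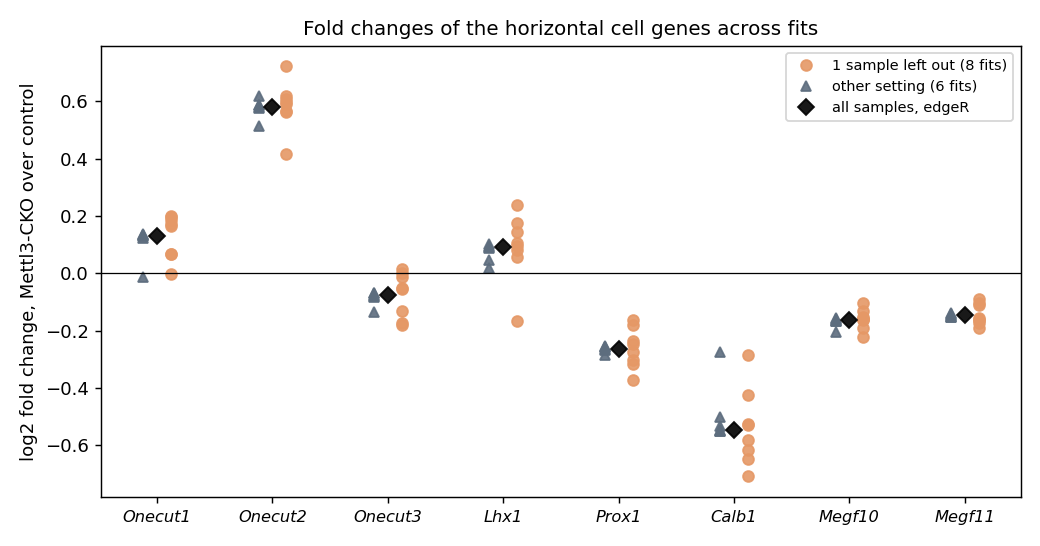
Log2 fold change of each horizontal cell gene (y axis) in the fit of all samples (diamond), in 8 fits that each left out 1 sample (circles) and in 6 other fits (triangles). *Onecut2* stays between 0.42 and 0.72, *Calb1* between -0.71 and -0.27, *Prox1*, *Megf10* and *Megf11* stay below 0, and *Onecut1*, *Onecut3* and *Lhx1* cross 0.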

How the data were processed

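The values the authors deposited are raw counts per gene for 8 retinal samples: per the methods and labels, filtered reads were mapped to GRCm38 with HISAT2 and counted with featureCounts. The annotation release and strand setting are not given in the sources used here, so overlapping genes are uncertain. Gene lengths were taken from the deposited table, a value in another unit (bases), and used only for FPKM. The fits used edgeR 4.0.16 under R 4.3.3 (filterByExpr, TMM scaling, quasi-likelihood test, Benjamini-Hochberg adjustment over all 17998 genes tested, threshold 0.05). DESeq2 1.42.0 was an alternative. CPM are after TMM scaling, log2 CPM use a prior count of 2, and standard errors are the absolute log2 fold change over the square root of F. The 8 genes, the lists and the tests were chosen with earlier results of these data known. All genes of the horizontal cell lists could be named, relatives and other markers mainly by count, and the 3 genes most like *Onecut1* by Pearson correlation. Alternatives were other scalings, no filter, a replicate block and leaving out samples. Intervals cover the spread between these samples. No pair of samples agreed within sampling noise (lowest chi-square 5.01 per gene). Some genes of the lists are not reported here and were left out of the counts and sums.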

Additional observations from a re-analysis of the deposited data

Results flagged for a closer look

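A Dixon test at the 95% level asked, within each group of 4, whether 1 sample stood far from its 3 neighbours. It picked 5 of 52 groups, and chance alone picks about 2.6. Control replicate 1 was far below the other controls in *Onecut1*, at 2.56 on the log2 CPM scale against 3.13 to 3.23, and in *Foxn4*, at 3.92 against 5.10 to 5.18, and far above them in *Calb2*, at 7.47 against 6.55 to 6.69. *Mettl3*-CKO replicate 1 was below its group in *Megf11*, at 4.83 against 5.03 to 5.07, and in *Gad2*, at 5.6 against 6.12 to 6.20.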

How the results depend on the processing

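The 4 counts of called genes and the median log2 fold change of the 8 horizontal cell genes were recomputed under 14 alternatives, of which the one without both control replicates 1 and 4 was added after the data had been seen. The median stayed negative in all 14, from -0.17 to -0.07. The 8 fits that each left out 1 sample gave 0 to 1 of the 8 genes called lower, 0 to 1 called higher, 0 to 2 specification and maturation genes called lower and 0 to 1 called higher. Calls over all genes moved in the same fits, from 509 higher and 185 lower without *Mettl3*-CKO replicate 1 to 1882 higher and 1289 lower without control replicate 1, against 1168 and 729 with all samples and 1476 and 1019 in DESeq2. DESeq2, the fit with no filter on low counts and the fit without both control replicates called 2 specification and maturation genes lower, and the fit with no filter called 1 higher. The replicate numbers did not pair the samples, with correlations of same-numbered deviations of -0.111, 0.215, -0.114 and 0.249, and with the replicate block the log2 fold change of *Onecut2* was 0.62 (adjusted p = 0.0393, edgeR). Only 2 of the 4 *Mettl3*-CKO samples correlated best with their own number. Signs turned in genes that were not called. Over the fits that left out 1 sample or both control replicates, the log2 fold change ran from -0.013 to 0.20 in *Onecut1* (-0.0037 without control replicate 1), from -0.18 to 0.017 in *Onecut3*, from -0.17 to 0.24 in *Lhx1*, from -0.22 to 0.068 in *Tfap2b*, from -0.22 to 0.16 in *Gad2*, from -0.0037 to 0.19 in *Slc4a3*, from -0.15 to 0.13 in *Nefl*, from -0.18 to 0.057 in *Ntng2* and from -0.34 to 0.022 in *Calb2*. In *Nefl* it was 0.12 without both control replicates. Without a change of sign it ran from 0.088 to 0.39 in *Ptf1a*, from -0.22 to -0.037 in *Rorb*, from -0.40 to -0.13 in *Tfap2a*, from -0.37 to -0.14 in *Nefh*, from -0.34 to -0.14 in *Nefm*, from -0.24 to -0.094 in *Gad1*, from -0.22 to -0.10 in *Megf10* and from -0.19 to -0.090 in *Megf11*. With the replicate block it was 0.043 in *Gad2* and 0.00088 in *Ntng2*. The causes were not tested. Of the 8 genes, *Onecut3* (46 to 62), *Calb1* (62 to 186) and *Lhx1* (81 to 162) had the lowest counts.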
